A study of Homo sapiens with 4 samples.

Results

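The 43 genes described here are those of DNA replication and S phase, chosen by their gene names in the deposited expression tables. They are 43 of the 58735 genes in each table, and all 43 are among the 12949 genes with a mean level of at least 1 FPKM over the 4 libraries (FPKM, fragments scaled to gene length and library size). The list was chosen with earlier results of these data known. Shares of all genes set beside counts of the 43 are therefore description and not a test. RNA was sequenced from the established human glioblastoma (GBM) lines U251 and U87, as 1 Control and 1 Bru library for each line. Bru is brusatol, a compound of the plant Brucea javanica that is known to lower the NRF2 protein and to slow protein synthesis. The lines came from a cell bank and are cultured tumour cells without their tissue. Treated cells received Bru at its IC50, the concentration that lowers viability to the midpoint, for 48 h, and Control cells, as they are described for other assays of the study, received the solvent DMSO. An IC50 belongs to a line, and the concentration of each library is not given in the sources used here, so line and concentration cannot be told apart where the responses to Bru of U251 and U87 differ.

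To copy its genome once, a cell first licenses replication origins in G1. The origin recognition complex, CDC6 and CDT1 load the MCM2 to MCM7 ring onto DNA, and kinases then turn the ring into a moving helicase with CDC45 and the GINS complex. Behind it, primase and the polymerases copy both strands on the sliding clamp PCNA, while ribonucleotide reductase and the thymidylate enzymes supply deoxynucleotides. Most of these genes are known to be transcribed under E2F factors, which cyclin D and cyclin E kinases release from RB1 as cells commit to S phase.

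In U251, all 43 genes had a lower level in the Bru library than in the Control library, whereas in U87 the levels of the 2 libraries lay close together. The summed level of the 43 genes was 1487 FPKM in U251 Control and 851 FPKM in U251 Bru, which is 57.2% of Control. In U87 the sums were 1301 and 1165 FPKM, or 89.5% of Control. The group of genes that open S phase was the lowest relative to Control in U251, with CCNE1, E2F1, E2F2 and CCNE2 at 37.3% to 44.8% of Control. No gene of the 43 differed by 1.5-fold between the U87 libraries. In bulk RNA, fewer cells in S phase and less RNA of these genes per cell cannot be told apart.

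Each condition has 1 library, so no difference here has a replicate check and no p-value is given across genes. The FPKM were scaled by library sizes of 17406238 to 20974002, which differ from the total fragments on genes of each library. The number of fragments of each gene was recovered from its FPKM. The 95% intervals below are exact Clopper-Pearson intervals on these fragments. They cover counting error only, for reads without molecular identifiers, and they compare libraries rather than conditions. Over the 12949 genes, the median log2 ratio of Bru to Control was -0.03 in U251 and -0.04 in U87, with quartiles of -0.38 and 0.30 in U251 and of -0.20 and 0.12 in U87. The mesenchymal glioma marker VIM was high in all 4 libraries (606 to 701 FPKM) and so was CD44 (94.5 to 125 FPKM). CHI3L1, a further glioma marker, was low, at 0.04 and 0.02 FPKM in U251 Control and Bru and 0.71 and 0.27 FPKM in U87. The stem cell factor SOX2 was at 129 and 91.2 FPKM in the U251 libraries and at 0 and 0.05 FPKM in the U87 libraries. NES, nestin, was likewise higher in U251 (125 and 50.6 FPKM) than in U87 (1.46 and 0.57 FPKM). FABP7 was at 8.27 and 2.04 FPKM in U251 Control and Bru and at 0.02 and 0 FPKM in U87. The glial markers GFAP, OLIG2 and S100B were low or near 0 in every library, and markers of leukocytes, endothelium, epithelium and neurons did not exceed 0.50 FPKM.

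Promoter sequence is shown for E2F1, E2F2, MCM6, PCNA and POLE, whose levels in U251 Bru were 44.5% to 51.6% of Control. They were picked by hand from the 22 genes found to hold a word that E2F factors are known to bind. Genes with smaller differences hold such a word too, as GMNN, GINS3 and CDT1 do (81.5%, 78.2% and 76.9% of Control in U251 Bru). The stretches are from RefSeq promoters (GRCh38.p14), are written 5′ to 3′ in the sense of the gene, and lie upstream of the RefSeq transcription start. Capitals mark the E2F words TTTCCCGC, TTTCGCGC and TTTGGCGC and their reverse complements GCGGGAAA, GCGCGAAA and GCGCCAAA.
E2F1: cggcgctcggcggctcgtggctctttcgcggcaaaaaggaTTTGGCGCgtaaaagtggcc
E2F2: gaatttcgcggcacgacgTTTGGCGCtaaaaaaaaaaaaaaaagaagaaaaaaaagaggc
MCM6: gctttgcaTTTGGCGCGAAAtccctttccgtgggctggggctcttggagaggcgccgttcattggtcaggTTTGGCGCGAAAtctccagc
PCNA: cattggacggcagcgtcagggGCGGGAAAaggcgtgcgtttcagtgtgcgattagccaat
POLE: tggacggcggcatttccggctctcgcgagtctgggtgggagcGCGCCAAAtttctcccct

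All 5 genes are read from the minus strand. The stretch of E2F1 is chr20:33686386-33686445, that of E2F2 is chr1:23531234-23531293, that of MCM6 is chr2:135876514-135876603, that of PCNA is chr20:5126643-5126702 and that of POLE is chr12:132687343-132687402. In GENCODE release 29, the annotation whose positions and gene lengths the files carry, the stretches of E2F2, MCM6 and PCNA lie outside exons, and those of E2F1 and POLE reach 19 and 23 bases into the first exon. MCM6 holds 4 words as 2 pairs, each a TTTGGCGC that overlaps a GCGCGAAA. The PCNA stretch also holds 2 CCAAT words in lower case, 1 on each strand, and the MCM6 stretch holds 1, on the other strand.

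The genes that bring a cell into S phase had the lowest Bru levels relative to Control among the groups of genes in U251. CCNE1, cyclin E1 (chr19:29811898-29824308, plus strand), which drives CDK2 at the start of S phase, was at 11.1 FPKM in Control and 4.13 in Bru for U251, against 12.0 and 12.3 FPKM for U87. Only the U251 Bru library was low. Its log2 ratio, computed on FPKM + 0.1 here and for every gene below, was -1.40 in U251 (95% interval -1.66 to -1.19, computed without the added 0.1) and 0.03 in U87 (-0.14 to 0.20). CCNE2, cyclin E2, was at 4.33, 1.87, 5.20 and 3.97 FPKM in the same order of libraries, with log2 ratios of -1.17 (-1.49 to -0.94) and -0.38 (-0.61 to -0.17). It was thus below Control in both Bru libraries, and 37.1% of its exon bases are shared with other genes, almost all of them with INTS8 on the other strand (5.87, 5.58, 7.75 and 6.70 FPKM).

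E2F1, the activating E2F factor, was at 59.0 and 26.4 FPKM without and with Bru in U251, and 72.6 and 63.1 FPKM in U87. Its level in U251 Bru was 44.8% of Control (log2 ratio -1.16, -1.26 to -1.06), and in U87 Bru it was closer to Control (-0.20, -0.27 to -0.13). E2F2, a second activating member of the family, was at 6.22, 2.77, 9.82 and 9.56 FPKM. The U251 ratio was again near -1 (-1.14, -1.37 to -0.97), while in U87 the interval spanned 0 (-0.04, -0.17 to 0.09). The ratio of E2F1 to E2F2 was 9.49 and 9.55 in U251 and 7.39 and 6.60 in U87, each without and with Bru. For CCNE1 to CCNE2 it was 2.56 and 2.21 in U251 and 2.31 and 3.09 in U87.

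**Figure D1:**
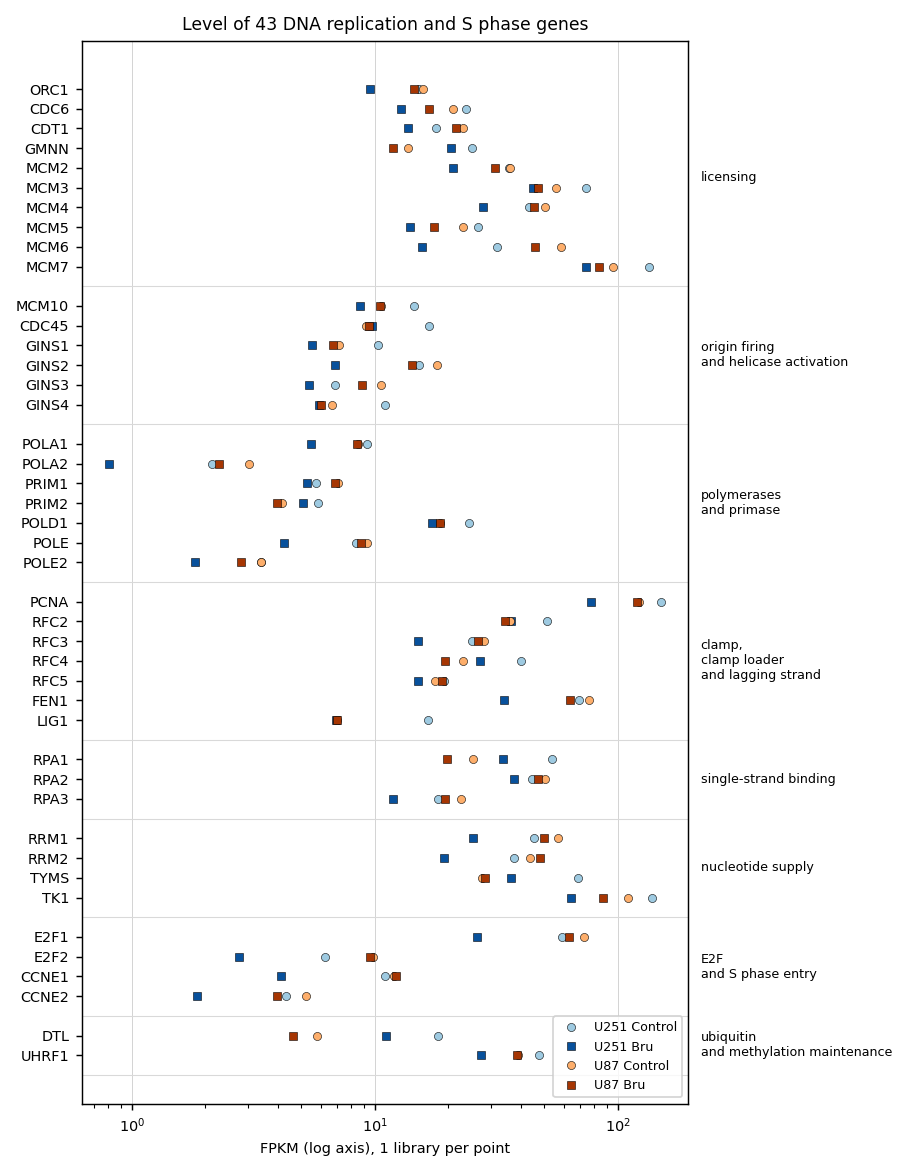
Level of each of the 43 genes in FPKM on a log axis, grouped by role, with 1 point per library (circles, Control, and squares, Bru, blue for U251 and orange for U87). The dark blue squares of U251 Bru lie to the left of the light blue circles of U251 Control for all 43 genes, from POLA2 at 0.81 FPKM to PCNA at 77.7 FPKM, while the U87 symbols lie close to each other.

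Counted by fold, 10 of the 43 genes were lower past 2-fold in U251 Bru (CCNE1, CCNE2, E2F1, E2F2, FEN1, GINS2, LIG1, MCM6, POLA2 and TK1), beside 5.44% of the 12949 genes and 4.4% of the protein-coding genes among them. Past 1.5-fold the count was 33 of 43, beside 15.6% of all genes and 14.4% of the protein-coding ones. The interval lay below 0 for 42 of the 43 genes, beside 35.9% of all genes, above 0 for none of the 43, beside 30.9%, and spanned 0 for PRIM1. The median log2 ratio of the 43 genes was -0.80, with a range from -1.40 for CCNE1 to -0.11 for PRIM1. None of the 43 genes was higher in U251 Bru, where 3.36% of all genes were higher past 2-fold and 11.3% past 1.5-fold.

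In U87, 0 of the 43 genes passed 2-fold and 0 passed 1.5-fold in either direction, beside 1.41% of all genes lower past 2-fold and 4.49% lower past 1.5-fold, and 1.92% and 4.56% higher. Of the protein-coding genes, 0.59% were lower past 2-fold and 3.13% past 1.5-fold. The log2 ratio was below 0 for 37 genes and above 0 for 6. The interval lay below 0 for 21 genes, beside 28% of all genes, spanned 0 for 21, and lay above 0 for RRM2 alone, beside 15.7% of all genes. The median was -0.14, with a range from -0.40 for MCM5 to 0.13 for RRM2. The share of the 43 genes whose interval lay below 0 was 21 of 43 in U87 and 42 of 43 in U251. Total fragments on genes were 17083896 to 21453561 per library.

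**Figure D2:**
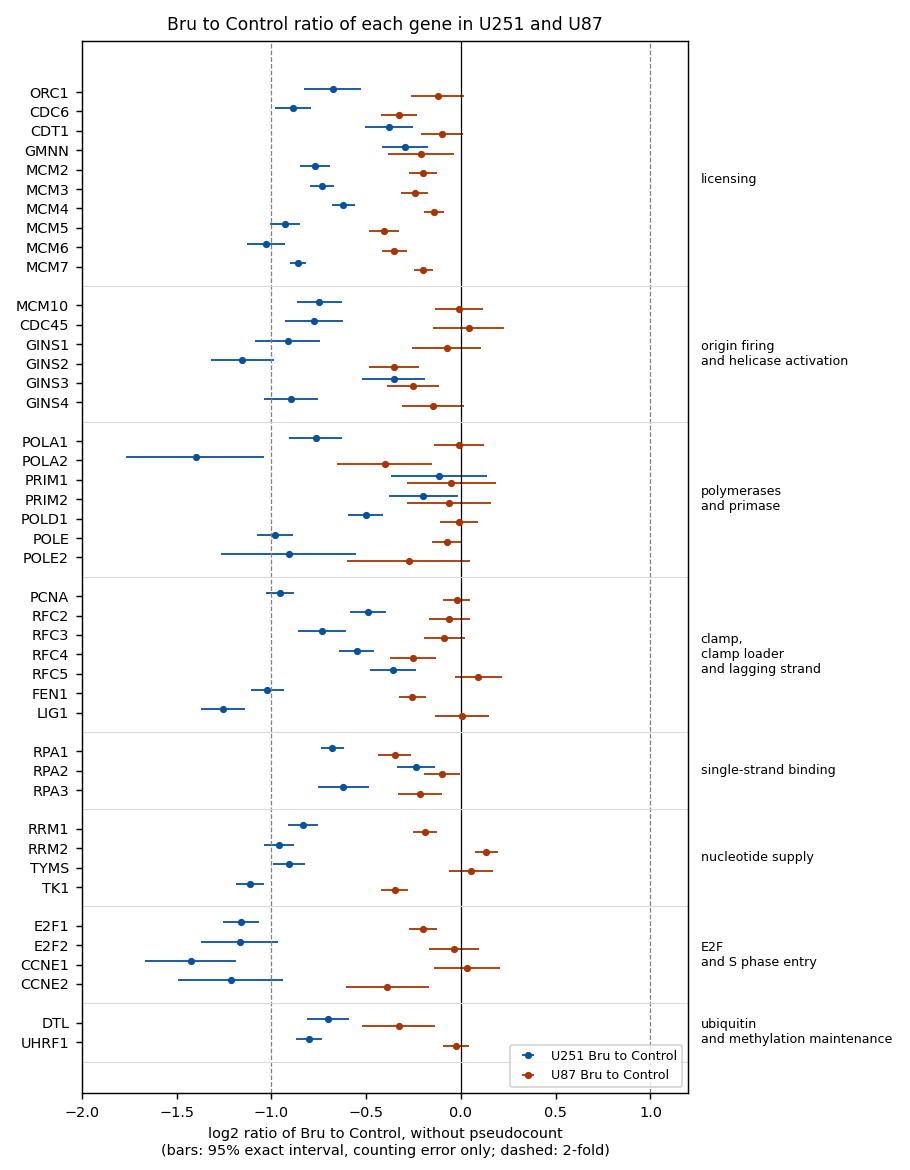
Log2 ratio of Bru to Control without an added constant for the 43 genes by role, in U251 (blue) and U87 (orange), with exact 95% intervals for counting error and dashed lines at 2-fold. Every U251 point lies to the left of 0 and of its U87 partner, and the U87 points lie between -0.40 and 0.13.

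Among the licensing genes, the 10 members had log2 ratios with medians of -0.75 (U251) and -0.21 (U87), and their summed level in Bru was 59.3% and 85.3% of Control. ORC1, the ATPase subunit of the origin recognition complex, was at 15.3 and 9.54 FPKM in the Control and Bru libraries of U251 and 15.8 and 14.5 FPKM in those of U87. CDC6, the loading factor that joins it on the origin, was at 23.8, 12.9, 21.0 and 16.7 FPKM. CDC6 was therefore lower in both Bru libraries, at 54.1% of Control in U251 (log2 ratio -0.88, -0.98 to -0.79) and 79.7% in U87 (-0.33, -0.42 to -0.23), while ORC1 was at 62.5% and 91.9%. CDT1, which brings the MCM ring, and GMNN, geminin, which holds CDT1 back after origins have fired, had smaller differences in U251, with log2 ratios of -0.38 (-0.51 to -0.25) and -0.29 (-0.42 to -0.17). The ratio of CDT1 to GMNN levels was 0.708 and 0.668 in U251 Control and Bru and 1.68 and 1.82 in U87 Control and Bru. In FPKM, which depends on the exon length of each gene, GMNN was above CDT1 in U251 and below it in U87. These are RNA levels, and the balance of the proteins was not tested.

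The subunits of the MCM ring were lower together. Their summed level was 346 FPKM in U251 Control and 198 FPKM in U251 Bru, and 319 and 271 FPKM in U87. The interval of each of the 6 lay below 0 in both lines, with U251 ratios from -1.02 for MCM6 to -0.62 for MCM4 and U87 ratios from -0.40 for MCM5 to -0.14 for MCM4. MCM6 was at 31.9 FPKM in Control and 15.6 in Bru for U251, against 58.5 and 45.9 FPKM for U87 (log2 ratios -1.02, -1.13 to -0.93, and -0.35, -0.42 to -0.29). MCM7 was the highest of the 6 in each library, at 135, 74.2, 95.7 and 83.5 FPKM. MCM5 was the lowest, at 26.7, 14.0, 23.2 and 17.5 FPKM, so highest and lowest were 4.13-fold to 5.30-fold apart in each library. This gap depends in part on the exon length that FPKM divides by, which is 4386 bases for MCM7 and 7338 bases for MCM5. MCM2 was at 58.7% of Control in U251 and 86.9% in U87, MCM3 at 60.1% and 84.4%, and MCM4 at 65.1% and 90.5%.

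For origin firing and activation of the helicase, the medians of the 6 members were -0.83 (U251) and -0.11 (U87). GINS2, a subunit of the GINS complex that completes the helicase, was at 15.3 and 6.88 FPKM without and with Bru in U251, and 18.1 and 14.2 FPKM in U87. Its log2 ratios were -1.14 (-1.32 to -0.99) and -0.35 (-0.49 to -0.22). The other subunits did not follow it evenly, with U251 ratios of -0.90 for GINS1, -0.89 for GINS4 and -0.35 for GINS3, and GINS3 had a ratio of -0.25 (-0.39 to -0.12) in U87. For GINS3 the difference between the lines was -0.10 (-0.31 to 0.11). CDC45, the third part of the active helicase, was at 16.7, 9.78, 9.24 and 9.51 FPKM, a ratio of -0.77 (-0.93 to -0.62) in U251 and 0.04 (-0.15 to 0.23) in U87. MCM10, which acts as origins fire, was at 59.6% of Control in U251 and 99.2% in U87.

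The 7 genes of the polymerases and primase held both the second deepest and the smallest difference in U251. POLA2, the second subunit of DNA polymerase alpha, was at 2.13 and 0.81 FPKM in the Control and Bru libraries of U251 and 3.03 and 2.30 FPKM in those of U87, from 256, 86, 314 and 229 fragments. Its log2 ratios were -1.29 (-1.76 to -1.04) and -0.39 (-0.65 to -0.15), and 35.1% of its exon bases are shared with another gene. PRIM1, the catalytic subunit of primase and a partner of POLA2 in the same complex, was at 5.71, 5.27, 7.08 and 6.84 FPKM, and its interval spanned 0 in both lines (-0.11, -0.37 to 0.14, in U251). PRIM2, the large primase subunit, was at 87.2% of Control in U251, and POLA1, the catalytic subunit of polymerase alpha, at 58.8%. The 4 subunits of the polymerase alpha and primase complex thus had U251 ratios from -1.29 to -0.11.

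POLE, the catalytic subunit of the leading-strand polymerase epsilon, was at 8.40, 4.26, 9.29 and 8.82 FPKM, with log2 ratios of -0.96 (-1.08 to -0.89) and -0.07 (-0.15 to 0.00). Its partner POLE2 was at 53.4% and 82.7% of Control. POLD1, the catalytic subunit of the lagging-strand polymerase delta, had a smaller difference in U251 (-0.50, -0.59 to -0.41) and was at 99.4% of Control in U87.

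On the clamp and the lagging strand, PCNA, the sliding clamp, was the highest of the 43 genes in each library of U251 and in each library of U87. It was at 151 FPKM in Control and 77.7 in Bru for U251, against 122 and 120 FPKM for U87 (log2 ratios -0.95, -1.03 to -0.88, and -0.02, -0.09 to 0.05). LIG1 (chr19:48115445-48170603, minus strand), the ligase that seals Okazaki fragments, was at 16.5, 6.92, 6.99 and 7.02 FPKM, with log2 ratios of -1.24 (-1.37 to -1.14) and 0.00 (-0.14 to 0.15). U251 Bru was therefore at the level that both U87 libraries showed. FEN1, the nuclease that trims the fragments before LIG1 acts, was at 69.1, 34.1, 76.3 and 63.9 FPKM, with log2 ratios of -1.02 (-1.11 to -0.93) and -0.26 (-0.33 to -0.18). The 4 subunits of the clamp loader in the list differed less in U251, with log2 ratios of -0.73 for RFC3, -0.55 for RFC4, -0.49 for RFC2 and -0.36 for RFC5. Of these 4, only RFC4 (-0.25, -0.37 to -0.13) had an interval below 0 in U87, where RFC5 was at 107% of Control.

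The single-strand binding protein RPA, which coats unwound DNA, has 3 subunits, and each had an interval below 0 in both lines. RPA1 was at 53.8 and 33.6 FPKM without and with Bru in U251, and 25.4 and 19.9 FPKM in U87, which is 62.5% and 78.5% of Control. RPA3 had log2 ratios of -0.62 (-0.76 to -0.49) and -0.21 (-0.33 to -0.10), and RPA2 was at 84.8% and 93.3% of Control. The U87 interval of RPA2 lay only just below 0 (-0.196 to -0.003). Their summed level in U251 Bru was 71.4% of Control.

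The 4 enzymes of deoxynucleotide supply were each lower past 1.5-fold in U251, whereas in U87 their ratios lay on both sides of 0. TK1, thymidine kinase, was at 138 and 64.0 FPKM in the Control and Bru libraries of U251 and 111 and 86.7 FPKM in those of U87, with log2 ratios of -1.11 (-1.19 to -1.04) and -0.35 (-0.42 to -0.28). RRM1, the large subunit of ribonucleotide reductase, was at 45.1, 25.3, 56.8 and 49.7 FPKM, and its ratios were -0.83 (-0.91 to -0.76) and -0.19 (-0.25 to -0.13). RRM2 (chr2:10120698-10131419, plus strand), the small subunit made in S phase, was at 37.6, 19.3, 43.6 and 47.8 FPKM. It was the only one of the 43 genes with an interval above 0 in U87 (0.13, 0.07 to 0.20), against -0.96 (-1.04 to -0.88) in U251. The ratio of RRM2 to RRM1 levels was 0.833 and 0.763 in U251 Control and Bru and 0.768 and 0.962 in U87 Control and Bru. TYMS, thymidylate synthase, was at 68.4, 36.5, 27.6 and 28.6 FPKM (-0.90, -0.99 to -0.82, and 0.05, -0.06 to 0.17), and 46.6% of its exon bases are shared with other genes, the most of any of the 43, with ENOSF1 on the other strand as the main partner.

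DTL, the substrate receptor of the ubiquitin ligase that removes CDT1 during S phase, was at 18.2, 11.2, 5.81 and 4.63 FPKM, and UHRF1, which carries DNA methylation onto the new strand, was at 47.7, 27.4, 39.0 and 38.4 FPKM. DTL was lower in both lines (-0.70, -0.81 to -0.59, in U251 and -0.32, -0.52 to -0.14, in U87). For UHRF1 the U251 ratio was -0.80 (-0.87 to -0.73), and the U87 interval spanned 0 (-0.02, -0.09 to 0.04).

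The difference between the lines was then computed for each gene as the U251 log2 ratio minus the U87 log2 ratio, both without the added 0.1, with a normal 95% interval from the fragments of all 4 libraries. It was below 0 for 43 of 43 genes, and its interval lay below 0 for 38, beside 25.6% of the 12454 genes with fragments in all 4 libraries, and above 0 for 0, beside 27.3%. The intervals of GMNN, GINS3, PRIM1, PRIM2 and RPA2 spanned 0. The median difference was -0.65, and the most negative were CCNE1 (-1.45, -1.74 to -1.16), LIG1 (-1.26, -1.44 to -1.08), E2F2 (-1.13, -1.37 to -0.89) and RRM2 (-1.09, -1.19 to -1.0). Across the 43 genes, which share the same 4 libraries, the ratios in U251 and U87 had a Pearson r of 0.20 and a Spearman rho of 0.16. Between the U251 ratio and the log2 level in U251 Control, r was 0.003 and rho 0.02.

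**Figure D3:**
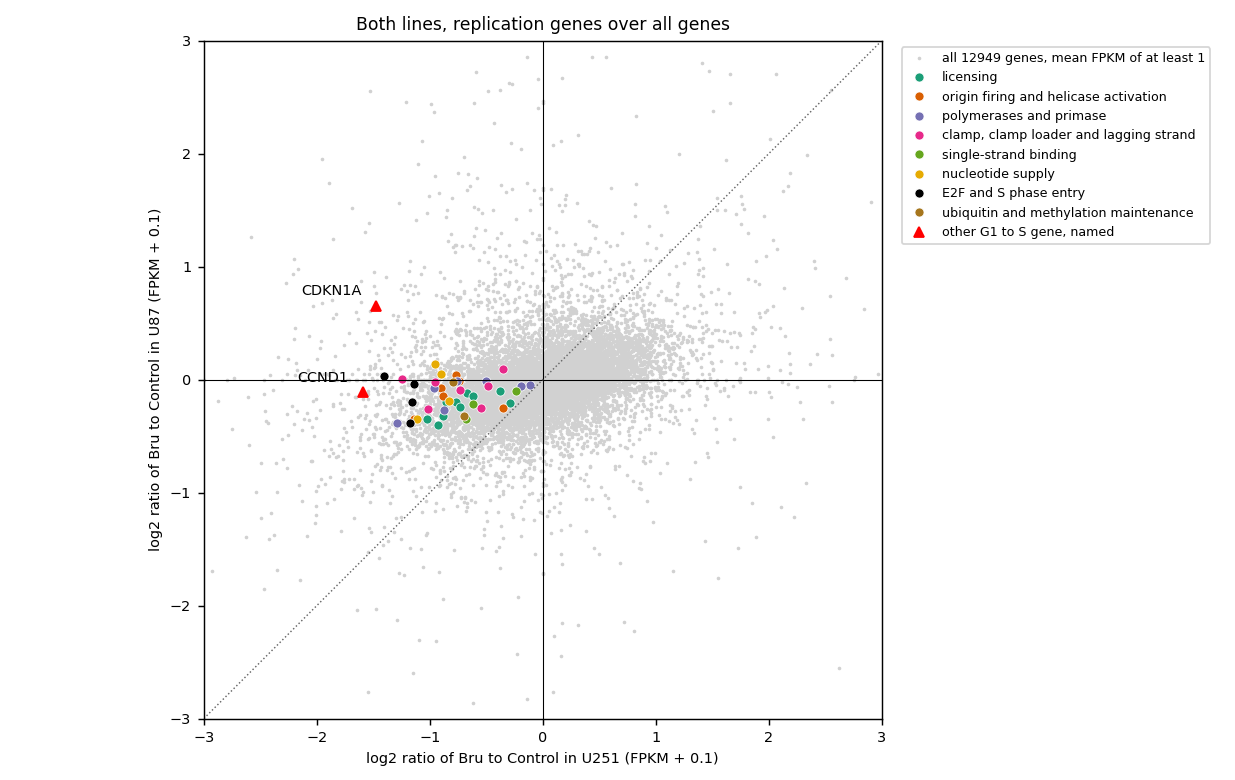
Log2 ratio of Bru to Control (FPKM + 0.1) in U251 (x axis) against U87 (y axis) for the 12949 genes with a mean of at least 1 FPKM (grey, 113 of them beyond the axes) and for the 43 genes by role (colours). The 43 genes lie left of 0 in a flat band whose U87 ratios run from -0.40 to 0.13, and the red triangles CCND1 and CDKN1A lie farther left.

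The Control libraries of the lines did not differ in 1 direction. U251 Control was above U87 Control beyond the counting interval for 22 genes, U87 Control was above U251 Control for 17, and 4 intervals spanned 0. The median log2 ratio of U87 Control to U251 Control was -0.12, with a range from -1.65 for DTL to 0.88 for MCM6. DTL, TYMS (-1.31), LIG1 (-1.24) and RPA1 (-1.09) were over 2-fold higher in U251 Control, and none of the 43 genes was over 2-fold higher in U87 Control. The same shares over all genes were not computed, so these counts do not set the 43 genes apart from other genes. The 43 genes took up 0.524% of all fragments on genes in U251 Control (95% interval 0.521 to 0.527), 0.320% in U251 Bru (0.317 to 0.323), 0.469% in U87 Control (0.466 to 0.472) and 0.432% in U87 Bru (0.429 to 0.436). The share was thus larger in U251 than in U87 among the Control libraries and smaller in U251 among the Bru libraries.

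The other genes of the pathway were read as 5 lists, and the medians of all 5 lay below 0 in U251 and were closer to 0 in U87. Among 17 other licensing and firing genes, 0 were lower past 2-fold in U251 and 2 (11.8%) past 1.5-fold, which is below the 5.44% and 15.6% of all genes, with medians of -0.44 (U251) and -0.07 (U87). TICRR, which starts helicase activation, was at 6.26, 3.25, 3.65 and 3.13 FPKM (-0.92 and -0.21), and the helicase RECQL4 at 33.8, 18.5, 15.4 and 14.4 FPKM (-0.86 and -0.10). DBF4, the activator of the kinase CDC7, had ratios of -0.56 and -0.26. The origin recognition complex split by subunit, which was seen in the data and not set by a rule: ORC1 and ORC6 were lower in U251 Bru (-0.67 and -0.50), while ORC2, ORC3, ORC4 and ORC5 had log2 ratios of 0.08, 0.43, 0.38 and 0.33. The intervals of ORC3, ORC4 and ORC5 lay above 0 in U251 (the lowest bound, that of ORC5, was 0.16), and in U87 these 3 were at -0.15, -0.08 and -0.07. The U87 interval of ORC3 lay below 0 (-0.29 to -0.02), and those of ORC4 and ORC5 spanned 0.

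Of 24 other fork genes, 22 had a mean of at least 1 FPKM, and 2 of these were lower past 2-fold in U251, 7 lower past 1.5-fold and 1 higher past 1.5-fold (medians -0.33 in U251 and -0.09 in U87). The 7 genes are 31.8% of the 22, beside 15.6% of all genes, and the 2 genes are 9.09%, beside 5.44%. For the 1 gene higher past 1.5-fold, the share of all genes was 11.3%. The 3 genes named by their mean ratio are histone chaperones that assemble chromatin behind the fork, while ASF1A, a chaperone of the same list, chosen after its values were seen, had a U251 ratio of -0.08 (-0.19 to 0.03). ASF1B was at 53.3 FPKM in Control and 23.6 in Bru for U251, against 43.1 and 39.7 FPKM for U87 (-1.17, -1.28 to -1.07, in U251), CHAF1A had ratios of -1.01 and -0.17, and CHAF1B of -0.77 and -0.33. Among the 22 other genes of nucleotide supply, 21 passed the minimum level, with 3 (14.3%) lower and 3 higher past 1.5-fold in U251, close to the 15.6% and 11.3% of all genes, and medians of -0.20 and -0.01. DUT, which removes dUTP, was lower in U251 Bru (-0.80, -0.90 to -0.70). IMPDH2, the rate-limiting enzyme of guanine nucleotide synthesis, was higher at 92.9, 160, 109 and 121 FPKM (0.78, 0.73 to 0.83, in U251 and 0.15, 0.10 to 0.20, in U87), and NME1, a nucleoside diphosphate kinase, had ratios of 0.81 and 0.27. RRM2B, the p53-induced counterpart of RRM2, chosen after its values were seen, was at 8.10, 9.31, 18.3 and 26.7 FPKM, and its ratio was 0.20 in U251 and 0.54 in U87.

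In the control of the G1 to S transition, 35 genes were listed and 30 passed the minimum level. Of these, 4 (13.3%) were lower past 2-fold in U251 and 13 (43.3%) past 1.5-fold, beside 5.44% and 15.6% of all genes, with medians of -0.53 (U251) and -0.10 (U87). For U87, 1 (3.33%) was lower and 1 higher past 1.5-fold, which is below the 4.49% and 4.56% of all genes. CCND1, cyclin D1, which starts the release of E2F, was at 133 and 44.0 FPKM without and with Bru in U251, and 153 and 141 FPKM in U87 (-1.59, -1.65 to -1.54, and -0.11, -0.15 to -0.08). MYBL2, a transcription factor that is itself a known E2F target, had ratios of -1.23 and -0.08, and SKP2, which targets p27 for degradation, of -0.96 and -0.40. CDKN1A, the p53-induced inhibitor p21, went opposite ways in the 2 lines, at 35.6 and 12.7 FPKM in U251 and 83.7 and 132 FPKM in U87 (-1.48, -1.61 to -1.36, and 0.66, 0.60 to 0.71). E2F7, a repressive E2F, was at 16.9 and 7.60 FPKM in U251, and it had 0 fragments in both U87 libraries, which allows up to 0.0273 FPKM at 3 fragments. CDKN2A, the inhibitor p16 that both lines are known to have lost, was at 0 in all 4 libraries.

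Most mitosis genes were also lower in U251 Bru. Of 24 listed genes, 23 passed the minimum level, and 1 of these (4.35%) was lower past 2-fold in U251 and 14 (60.9%) past 1.5-fold, beside 5.44% and 15.6% of all genes, with medians of -0.61 (U251) and -0.10 (U87). MKI67, the proliferation marker Ki-67, was at 47.3 and 21.8 FPKM in the Control and Bru libraries of U251 and 45.1 and 41.6 FPKM in those of U87 (-1.11, -1.16 to -1.07, in U251 and -0.12, -0.16 to -0.08, in U87). TOP2A, the topoisomerase that untangles chromosomes, had ratios of -0.89 and -0.29, and ANLN, a protein of the cleavage furrow, of -0.83 and -0.35. The exception was CDC20, an activator of the anaphase-promoting complex, chosen after its values were seen, at 0.11 (0.05 to 0.17) in U251. The part of a change in the number of cycling cells in the ratios of the 43 genes was not tested.

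**Figure D4:**
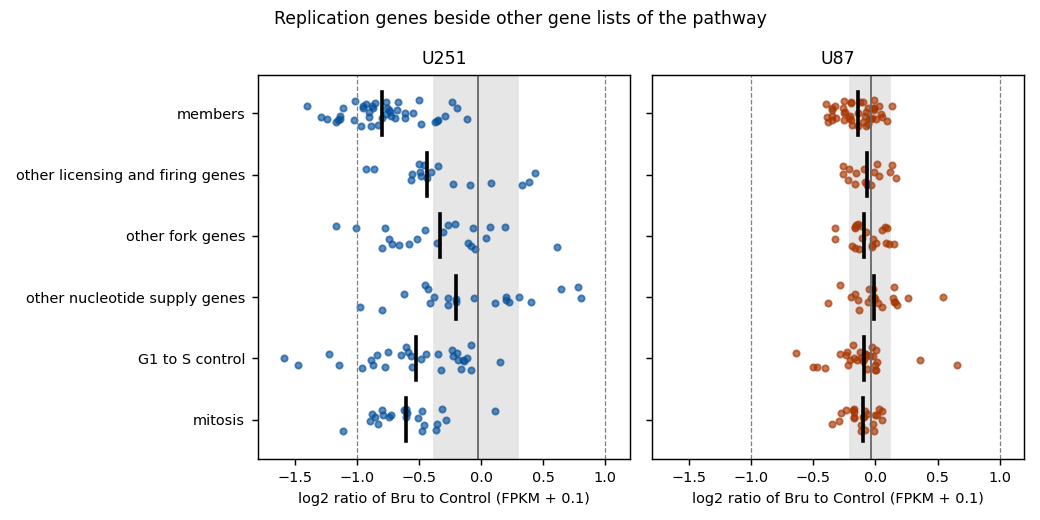
Log2 ratio of Bru to Control (FPKM + 0.1) in U251 and in U87 for the 43 genes (top row) and 5 further lists, 1 point per gene with a mean of at least 1 FPKM and black bars at list medians. The grey line and band are the median and quartiles of the 12949 genes, and dashed lines mark 2-fold. The median of the 43 genes was -0.80 in U251 and -0.14 in U87, and that of the other nucleotide supply genes was -0.20 and -0.01.

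Promoters were found for 37 of the 43 genes in the RefSeq table, each from 250 bases before to 50 bases after a transcription start. An E2F word (TTTCCCGC, TTTCGCGC or TTTGGCGC, both strands) occurred in the promoters of 22 of these 37 genes (59.5%), in 2.74% of all 35116 promoters and in the promoters of 5.88% of the 8972 matched genes with a mean of at least 1 FPKM. MCM4, MCM5, GINS4, RPA2, RPA3 and CCNE2 had no entry. The 22 genes held 29 matches, placed by the first base of each word. The median position was 39 bases before the start, with 25 beginning before the start and 15 beginning within the last 60 bases before it. Words of GINS3, POLE2 and MCM3 begin so close to the start that they run across it. Genes such as CDC6, MCM2 and GINS1 held their word just after the start, and POLA1 and LIG1 held theirs more than 100 bases upstream.

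**Figure D5:**
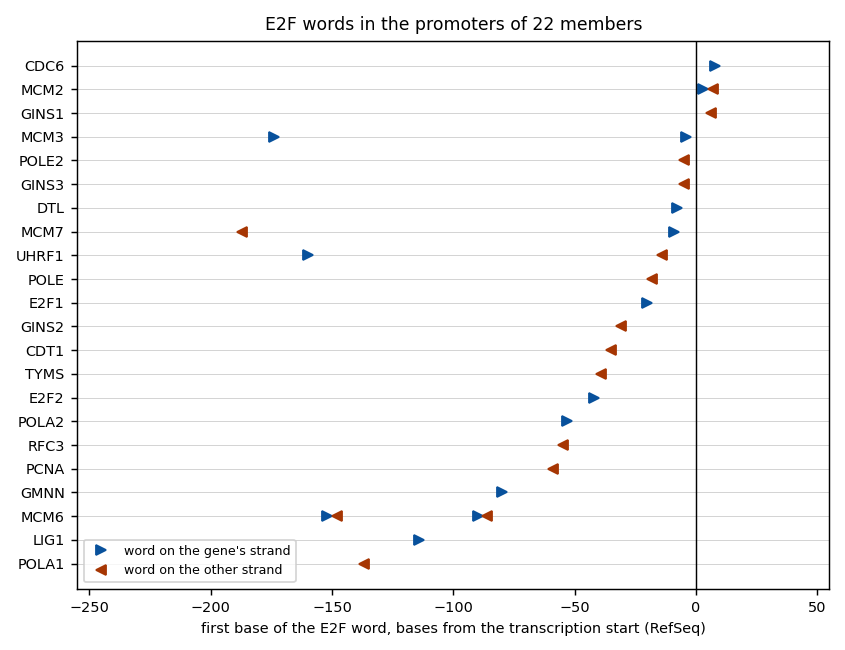
Position of each E2F word in the promoters of the 22 genes that hold one, in bases from the RefSeq transcription start, with the direction of the triangle giving the strand (right, strand of the gene, and left, other strand). Of 29 words, 15 begin within the last 60 bases before the start and 4 begin after it.

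The median log2 ratio of the 22 genes with an E2F word was -0.88 for U251 and -0.20 for U87, and the 15 matched genes without one had medians of -0.68 and -0.06. The ranges overlapped, from -1.29 to -0.29 with a word and from -1.40 to -0.11 without one in U251. CCNE1, the gene with the lowest ratio, TK1 and FEN1 held no such word in this window, while CDT1 and GMNN, with some of the smallest differences, did. Outside the 43 genes, 506 other genes of at least 1 FPKM held an E2F word with medians of -0.08 (U251) and -0.04 (U87), beside -0.02 and -0.05 for the 8429 without one. The word CCAAT (both strands) was in the promoters of 22 of the 37 genes too (59.5%), beside 43.9% of the 8972 matched genes and 34.6% of all promoters, and the CHR word TTTGAA (both strands), known from mitotic genes, was in those of 1 of 37, RRM1, beside 13.5% of the 8972 genes and 15.2% of all promoters. A match describes these letters only and does not show that a factor binds there. The lack of an E2F word means only that none of the exact words searched was in this window. Other forms of E2F site were not searched for.

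How reads in shared exon bases were counted, and whether by strand, is not given in the sources used here. Such reads may therefore enter some of these levels or be left out of them. Of the 43 genes, 18 share exon bases with another gene, 7 of them over 20% (TYMS, CCNE2, POLA2, MCM2, GINS4, PRIM1 and RRM2). The largest partners of POLA2, PRIM1, RRM2 and POLD1 lie on the same strand as the gene, where counting by strand would not separate them. Named pseudogenes were listed for 7 of the genes and held at most 0.0525% as many fragments as the gene itself.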

How the data were processed

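The authors deposited 1 table per library with FPKM and the gene length for each of 58735 genes. The study used the NEB Next Ultra kit and paired-end reads. HISAT2 2.0.5, StringTie 1.3.3b, featureCounts 1.5.0-p3 and DESeq2 1.16.1 are named in the submitters' processing notes, without their settings. The notes name the build hg18, but all 58735 genes have the position and exon length of GENCODE release 29 (GRCh38). The treatment time of 48 h and the IC50 come from the paper, not from the labels.

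FPKM times gene length was a whole multiple of 1 step for 100% of the values in each library (tolerance 0.01 fragments). This gave fragments per gene and the library size that the FPKM were scaled by. Fragments on genes added up to 17083896 to 21453561 per library. They exceeded this library size in both Control libraries (in U251, 21453561 against 20974002) and fell short of it in both Bru libraries (in U251, 17847910 against 18533374). Scaling by total fragments on genes gave medians of the 43 genes of -0.71 in U251 and -0.10 in U87. Log2 ratios used FPKM + 0.1 and genes whose mean FPKM was at least 1. Counts past 2-fold and 1.5-fold, medians and exact Clopper-Pearson intervals were computed with Python 3.11.15, numpy 2.4.6, pandas 2.3.3 and scipy 1.17.1, and the code was tested on simulated data. The interval of a difference between lines is a normal interval on the log scale from the sum of the reciprocals of the fragments.

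The 43 genes and the gene lists were chosen with earlier results of these data known. From each related list, the 3 genes with the largest absolute mean of both log2 ratios were named, with CDKN1A, CDKN2A and E2F7. The subunits ORC2 to ORC6, RRM2B, ASF1A and CDC20 were added after their values were seen. Other pseudocounts, scalings and minimum levels were tried.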

Additional observations from a re-analysis of the deposited data

Results flagged for a closer look

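This check covered the 43 genes and the genes named by rule. For RRM2 and CDKN1A, the Bru library lay below Control in U251 and above it in U87, beyond the counting interval in each line. Other listed genes also had opposite intervals in U251 and U87. Examples are ORC3 (0.28 to 0.59 and -0.29 to -0.02), MCM8 (-0.56 to -0.33 and 0.03 to 0.32) and CDK6 (-0.24 to -0.13 and 0.25 to 0.49). The share over all genes was not computed. The difference of the log2 ratios (U251 minus U87, without an added constant) was -1.09 for RRM2, with a 95% interval of -1.19 to -1.0. For CDKN1A it was -2.14, with an interval of -2.27 to -2.01. Over the other scalings and pseudocounts, the log2 ratio of RRM2 ran from -0.98 to -0.87 in U251 and from 0.13 to 0.19 in U87, and that of CDKN1A from -1.50 to -1.39 and from 0.65 to 0.71. These intervals hold counting error only, with 1 library per condition.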

How the results depend on the processing

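With a pseudocount of 1, 6 genes were lower past 2-fold in U251 in place of 10 (CCNE1, E2F1, FEN1, GINS2, LIG1 and TK1). Under the other alternatives the count was 8 to 10, and scaling to a median ratio of 0, to the 75th percentile or by total fragments left out MCM6 and FEN1. The count past 1.5-fold in U251 was 30 to 33, and in U87 no gene passed 1.5-fold under any alternative run. The median of the 43 genes ran from -0.82 to -0.71 in U251 and from -0.15 to -0.09 in U87. No ratio changed sign in U251, whereas 8 genes did so in U87 (E2F2, LIG1, MCM10, PCNA, POLA1, POLD1, PRIM1 and UHRF1), all with ratios near 0. The number of genes with a more negative ratio in U251 than in U87 beyond counting error was 38 under both scalings run. No paired analysis was possible because each condition has 1 library, and for the same reason no replicate could be left out.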

Other observations

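E2F7 and its neighbour NAV3 on the same chromosome had 0 fragments in both U87 libraries, while in the U251 Control and Bru libraries they had 2235 and 888 fragments (E2F7) and 170 and 338 fragments (NAV3). ZDHHC17 and CSRP2, which lie before E2F7 on the chromosome (on the side away from NAV3), had 353 and 298 fragments in U87 Control and 303 and 243 in U87 Bru.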
